A study of Mus musculus with 10 samples.

Results

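The 10 prostanoid synthesis genes described here were Ptgs1, Ptgs2, Ptgds, Hpgds, Ptges, Ptges2, Ptges3, Ptgis, Hpgd and Ptger4, each taken by its gene name from the count tables, which hold 24391 gene names. After subarachnoid hemorrhage (SAH), Ptgis, which makes prostacyclin, was 2.40-fold higher in hippocampus than in control, from counts of 6 to 23 per mouse, but it did not pass against Sham or Naive mice alone, nor against control without SAH mouse 4. Ptgds, which makes prostaglandin D2 (PGD2), was 2.18-fold higher than in mice without surgery, but its 1.20-fold difference from Sham-operated mice did not pass, and Sham mice stood at 1.81 times the level of Naive mice, which did not pass either. No other member passed edgeR's test in any comparison, while DESeq2 also called the cyclooxygenase Ptgs1. Ptgs2, the inducible cyclooxygenase, differed from control by a log2 fold change of 0.11 ± 0.066 (standard error), which did not pass.

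Prostanoids are lipid signals made from arachidonate that phospholipases release from membranes. The cyclooxygenases Ptgs1 and Ptgs2 turn arachidonate into prostaglandin H2, and terminal synthases turn this into PGD2, PGE2, prostacyclin, prostaglandin F2 alpha or thromboxane, which act on receptors of their own. In brain, Ptgds is a known product of leptomeninges, choroid plexus and oligodendrocytes, Ptgs2 is made by excitatory neurons and is induced by synaptic activity, and prostacyclin synthase is known from vessel walls and fibroblasts.

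All mice were male, 10 to 14 weeks old, of the strain that the study's methods write as C56BL/6J, and no group was defined by a drug. Bilateral whole hippocampus was collected, 1 library per mouse, 4 days after surgery in the operated groups. In the SAH group (mice 1 to 4, n = 4) a filament perforated the circle of Willis, the arterial ring at the base of the brain, on one side, and only mice whose cerebral blood flow dropped at perforation were kept. In the Sham group (mice 5 to 7, n = 3) the filament was advanced without puncture, and the Naive group (mice 8 to 10, n = 3) had no surgery. SAH and Sham mice shared the isoflurane anesthesia and the carotid surgery. Control means Sham and Naive mice pooled (n = 6).

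The libraries held 19743388 to 27254655 counts of read pairs on genes, and none of the pairs of mice within a group was near-identical. Levels are given as CPM, which corrects the counts of a gene for the depth of each library (with TMM scaling). Of 10 neuronal marker genes 0 passed the test in SAH against control (0 at an unadjusted p under 0.05 and 0 by DESeq2). Of 14 leptomeningeal markers 13 were higher and of 10 oligodendrocyte markers 9 were lower. In bulk tissue, fewer cells of a type and less RNA per cell cannot be told apart, and the same holds for more of either.

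All 10 members passed the filter on low counts. With an adjusted p under 0.10 from edgeR's quasi-likelihood test, 1 of the 10 was higher in SAH than in control, against 3.13% of the 14993 genes tested, and 0 were lower, against 1.54% of all genes. An unadjusted p under 0.05 was found for 4 members (Ptgs1, Ptgds, Ptges and Ptgis), against 17.0% of all genes, and DESeq2 called 2 (Ptgs1 and Ptgis). The CPM of the 4 SAH mice and the 6 control mice did not overlap for 1 member, Ptgis, against 5.2% of all genes. The median log2 fold change of the members was 0.17, with 8 positive and 2 negative, and that of all genes tested was -0.0024. Since all 4 comparisons share mice, their values are set side by side and not counted as repeats.

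**Figure D1:**
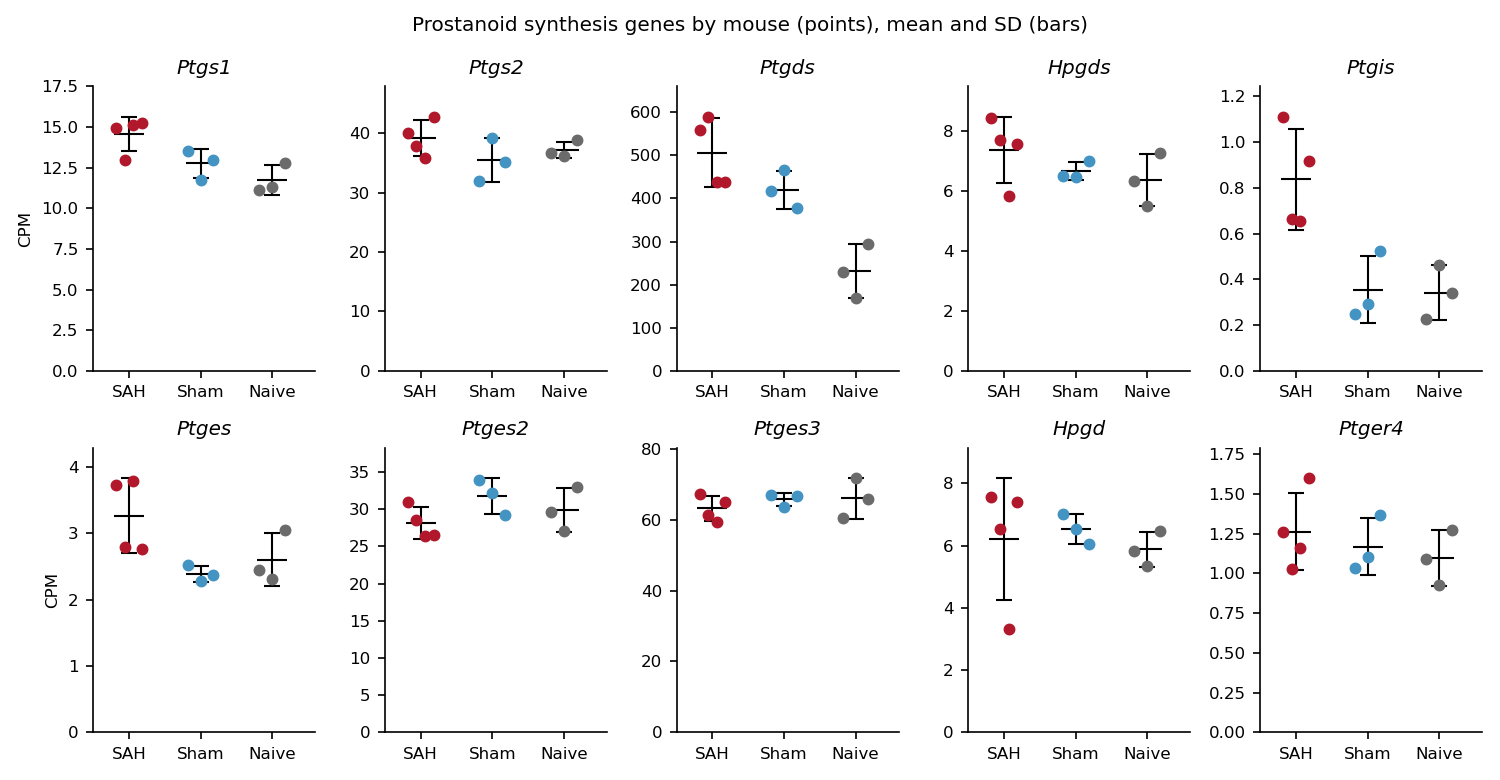
CPM (vertical axes, linear, each from 0) of the 10 prostanoid synthesis genes in the 4 SAH, 3 Sham and 3 Naive mice; each point is 1 mouse, and bars give the mean and SD. Ptgis is the only member whose 4 SAH mice all lie above all 6 control mice, and Ptgds is lowest in the 3 Naive mice.

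In control hippocampus the members covered a wide range once counts were divided by exon length (CPM per kilobase, n = 6 mice). Ptgds stood first at 404.7 ± 142 (SD), 12.01-fold above Ptges3 at 33.7 ± 1.93. Below these came Ptges2 at 15.8 ± 1.34, Ptgs2 at 8.77 ± 0.645 and Ptgs1 at 4.28 ± 0.345. The prostaglandin-degrading enzyme Hpgd was at 3.61 ± 0.343 and Hpgds, the second PGD2 synthase, at 1.97 ± 0.185. The lowest levels were those of Ptges (0.685 ± 0.0787), the receptor gene Ptger4 (0.340 ± 0.0486) and Ptgis (0.199 ± 0.0684). Neighbours in this order were separate in all 6 control mice except Ptgs1 and Hpgd, and Ptger4 and Ptgis, whose ranges overlapped. Ptgds alone gave on average 58.3% of the summed CPM of the 10 members in Naive mice, 72.0% in Sham mice and 75.3% in SAH mice.

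Neither cyclooxygenase passed the test with edgeR in any comparison. Ptgs1, the constitutive cyclooxygenase (mm9 chromosome 2, 36085946 to 36107791, plus strand), had 14.9, 12.98, 15.2 and 15.2 CPM in SAH mice 1 to 4. Its level was 13.5, 11.8 and 12.99 CPM in the Sham mice and 11.1, 11.3 and 12.8 CPM in the Naive mice. SAH mice 1, 3 and 4 lay above every control mouse, while SAH mouse 2 lay within the Sham range. The log2 fold change against control was 0.25 ± 0.078 (standard error, adjusted p = 0.118, edgeR). The call depended on the tool and on 1 mouse: DESeq2 gave an adjusted p of 0.0785, and edgeR without SAH mouse 2 one of 0.0564. Against Naive mice, which lay below all 4 SAH mice, the log2 fold change was 0.31 ± 0.093 (adjusted p = 0.134, edgeR), with an adjusted p of 0.0998 by DESeq2 and 0.0707 by edgeR without SAH mouse 2.

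Ptgs2 (mm9 chromosome 1, 151947254 to 151955142, plus strand) had 40.1, 37.9, 35.9 and 42.8 CPM in SAH mice 1 to 4. The Sham mice had 31.9, 39.3 and 35.2 CPM and the Naive mice 36.7, 36.2 and 38.8 CPM. The 3 groups overlapped, and Sham mouse 6 stood above SAH mice 2 and 3. The adjusted p against control was 0.429 (edgeR), and the log2 fold change was 0.062 to 0.15 when single mice were removed. The log2 ratio of Ptgs2 to Ptgs1 counts within a library averaged 1.42 ± 0.132 (SD) in SAH and 1.57 ± 0.196 in control, a difference of -0.14 that did not pass a 2-sided exact permutation test over the mice (p = 0.257, adjusted p = 0.257 over 2 ratios). With an adjusted p under 0.10 as for the genes, the call depended on the control mice: the difference was -0.24 with Naive mice alone as control (exact permutation adjusted p = 0.0571, the smallest that design allows), -0.045 with Sham mice alone (exact permutation adjusted p = 0.8) and -0.21 without Sham mouse 5 (exact permutation adjusted p = 0.0635). The smallest p that the 210 arrangements of 4 and 6 mice allow is 0.00952.

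Both cyclooxygenase promoters are shown because the genes share a substrate and differ in known inducibility. The windows run from 250 bases before to 50 bases after the RefSeq gene start (GRCm38.p6, plus strand, chr2:36230176-36230475 for Ptgs1 and chr1:150099781-150100080 for Ptgs2). Capitals mark matches to 6 motifs, searched on both strands: TATAAA, the E-box CACGTG, the CRE half-site TGACG, the GC box GGGCGG, the C/EBP palindrome TTGCGCAA and CCAAT.
Ptgs1: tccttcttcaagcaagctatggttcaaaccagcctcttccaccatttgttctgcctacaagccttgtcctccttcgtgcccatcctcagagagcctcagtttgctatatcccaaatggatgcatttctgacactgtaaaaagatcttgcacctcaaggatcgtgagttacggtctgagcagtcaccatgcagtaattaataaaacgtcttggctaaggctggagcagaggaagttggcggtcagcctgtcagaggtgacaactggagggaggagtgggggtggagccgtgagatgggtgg
Ptgs2: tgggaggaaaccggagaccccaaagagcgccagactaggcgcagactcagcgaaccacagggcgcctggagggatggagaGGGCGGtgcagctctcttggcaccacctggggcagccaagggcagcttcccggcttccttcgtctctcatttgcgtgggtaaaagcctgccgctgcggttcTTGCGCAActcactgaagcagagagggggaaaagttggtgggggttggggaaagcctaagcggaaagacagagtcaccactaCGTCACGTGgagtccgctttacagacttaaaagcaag
The Ptgs2 window held a GC box at -170, the C/EBP palindrome at -69, and a CRE half-site on the minus strand at 14 that overlaps an E-box at 17 (positions of the first base, counted from 1 at the gene start and backwards from -1). Of 27025 promoter windows, one a gene, 35.9% hold a GC box, 0.185% the palindrome, 21.0% the CRE half-site and 7.24% the E-box. The Ptgs1 window held none of the 6 motifs. Its GC content was 50.7% with 6 CpG, against 59.3% with 16 CpG for Ptgs2 and medians of 52.7% and 7 over all windows. Such matches describe letters in a window and not binding sites.

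Ptgs2 is one of the genes that synaptic activity induces, so it was set beside 15 other neuronal activity-regulated genes. Of these, 13 were lower in SAH than in control and 0 were higher (edgeR; 13 also by DESeq2), with summed levels of 554 to 884 CPM in SAH mice and 1083 to 1484 CPM in control mice that did not overlap. Fos, an immediate early transcription factor, had 12.8, 16.7, 6.77 and 9.11 CPM in SAH mice 1 to 4. It had 24.2 to 30.1 CPM in Sham mice and 33.2 to 47.4 CPM in Naive mice. Every SAH mouse was below every control mouse, and the log2 fold change was -1.57 ± 0.23 (adjusted p = 0.00375, edgeR). Arc, which acts at synapses, was lower by the same test (log2 fold change -1.13 ± 0.22, adjusted p = 0.0145). The 2 genes of that list that did not pass were Bdnf, a neurotrophin (-0.19 ± 0.11), and Homer1, a postsynaptic scaffold (-0.051 ± 0.057). Against Sham mice 8 of the 15 were lower with edgeR and 8 with DESeq2, Fos among them but not Arc. An unadjusted p under 0.05 was found there for 13, against 9.69% of all genes. In Sham against Naive 0 passed with edgeR and 0 with DESeq2, and 4 had an unadjusted p under 0.05, against 2.02%. The difference between Ptgs2 and this list was not tested.

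**Figure D2:**
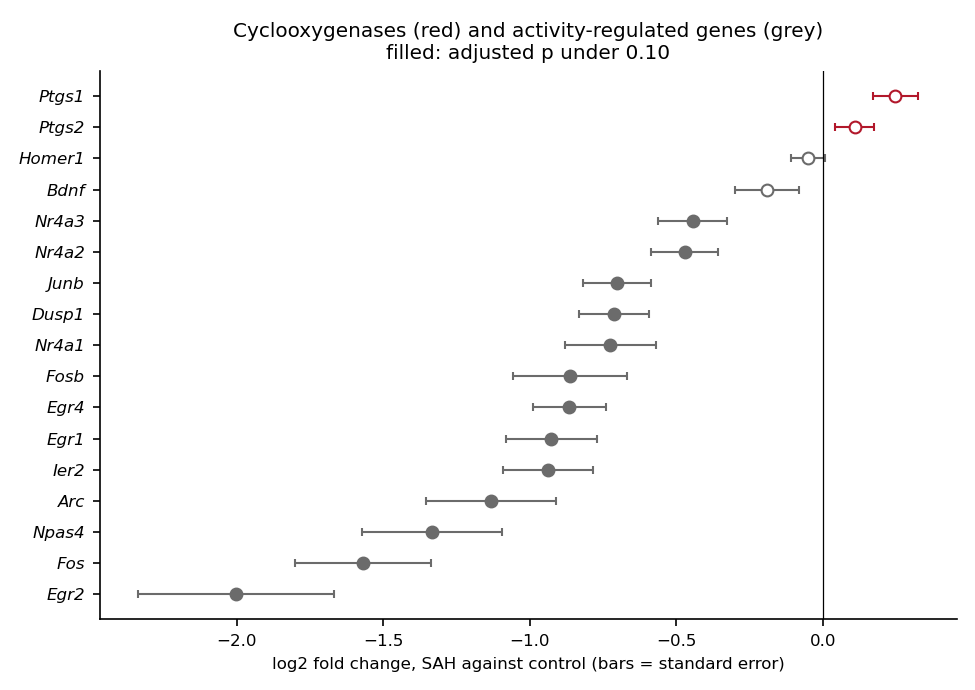
Log2 fold change in SAH against control (horizontal axis; bars are standard errors from edgeR) of Ptgs1 and Ptgs2 in red and of 15 activity-regulated genes in grey; filled points passed an adjusted p under 0.10. Of the grey genes 13 are filled and left of 0, while Ptgs2 (0.11) and Ptgs1 (0.25) are open and right of 0.

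The PGD2 synthases differed from each other in level, while the ratio of their counts did not pass its test in SAH against control. Ptgds, also known as lipocalin-type PGD synthase, lies at mm9 chromosome 2, 25322232 to 25325269, minus strand, with 7 exons and no overlapping gene in the annotation. It was shown with its promoter window (RefSeq, GRCm38.p6, minus strand, chr2:25469700-25469999) since it carried most of the members' counts; the window had a GC content of 57.7% with 2 CpG and held none of the 6 motifs.
Ptgds: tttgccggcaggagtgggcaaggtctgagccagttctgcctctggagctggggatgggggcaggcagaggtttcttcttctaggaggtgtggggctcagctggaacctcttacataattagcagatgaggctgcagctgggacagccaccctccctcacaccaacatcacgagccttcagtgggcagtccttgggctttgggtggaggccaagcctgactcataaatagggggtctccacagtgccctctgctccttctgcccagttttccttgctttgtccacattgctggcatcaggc

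Ptgds had 558.9, 589.8, 438.3 and 437.2 CPM in SAH mice 1 to 4. The Sham mice had 417.4, 465.4 and 377.6 CPM, and the Naive mice 230.4, 169.5 and 294.3 CPM. SAH and Sham mice overlapped, Sham mouse 6 being above SAH mice 3 and 4, whereas every Naive mouse was below every mouse that had surgery. Against Naive mice the SAH mice were higher by 1.13 ± 0.16 on the log2 scale (adjusted p = 0.00523, edgeR). That call was kept under every alternative run, with adjusted p-values from 8.38e-06 to 0.0423. Against Sham mice the log2 fold change was 0.27 ± 0.16 (adjusted p = 0.623, edgeR).

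Sham against Naive mice, the comparison of surgery without perforation to no surgery, gave Ptgds a log2 fold change of 0.86 ± 0.17. All 3 Sham mice were above all 3 Naive mice. The unadjusted p was 0.000256, but after adjustment over 15134 genes it was 1.00 (edgeR), and over all alternatives the adjusted p lay between 0.110 and 1.00. Of all genes tested 0.00661% were called here, a single gene, the sulfate transporter gene Slc13a4 (log2 fold change 1.51, adjusted p = 0.0488). With Sham and Naive mice pooled, the difference for Ptgds in SAH came to 0.63 ± 0.22 on the log2 scale (adjusted p = 0.158, edgeR). The pooled control group spans both levels, and the call changed with how it was fitted: with Sham and Naive as separate groups whose means were averaged, the log2 fold change was 0.70 (adjusted p = 0.0151), and without Sham mouse 6 it was 0.76 (adjusted p = 0.0969).

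Markers of the 3 cell types in which Ptgds is known were summed by mouse. The summed CPM of the 14 leptomeningeal markers was 467, 433, 244 and 337 in SAH mice 1 to 4, 216 to 226 in Sham mice and 165 to 174 in Naive mice, so that its groups did not overlap. SAH mice 1 and 2, with the highest Ptgds, also had the highest sums of this list. Other mice differed in order: Sham mouse 7 had the highest sum of the Sham mice, 226, and their lowest Ptgds, 377.6 CPM. SAH mice 3 and 4 had 438.3 and 437.2 CPM of Ptgds at sums of 244 and 337 for this list. Of its genes, 13 were higher in SAH than in control (13 at an unadjusted p under 0.05, 12 by DESeq2), 5 were higher than in Sham (13 and 10) and 13 than in Naive (13 and 13; edgeR). In Sham against Naive 1 passed, Slc13a4 (6 at an unadjusted p under 0.05, against 2.02% of all genes, and 1 by DESeq2).

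The 11 choroid plexus markers behaved differently from mouse to mouse. Their summed CPM was 110 to 1284 in SAH mice, 223, 62.2 and 863 in Sham mice 5 to 7, and 49.1 to 73.1 in Naive mice. Sham mouse 6 was within the Naive range for this list and had the highest Ptgds of the Sham mice. SAH mouse 1 had the lowest sum of the SAH mice, 110, and 558.9 CPM of Ptgds. Naive mouse 9 had the lowest sum of all mice for this and for the leptomeningeal list, and the lowest Ptgds, 169.5 CPM. In SAH against control 0 of the 11 passed (4 at an unadjusted p under 0.05, 0 by DESeq2), and against Sham 0 (0 and 0). In SAH against Naive, the comparison in which Ptgds was called, 2 were higher, Ttr and Kcnj13 (11 at an unadjusted p under 0.05, 6 by DESeq2), with a median log2 fold change of 2.81. In Sham against Naive 0 passed (7 at an unadjusted p under 0.05, 0 by DESeq2), with a median of 2.20. The 10 oligodendrocyte markers summed to 4940 to 6309 CPM in SAH mice and 7291 to 10072 CPM in control mice, with 9 lower in SAH than in control and 0 of 10 called in Sham against Naive (0 at an unadjusted p under 0.05, 0 by DESeq2). The part of these cell types in the level of Ptgds was not tested.

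**Figure D3:**
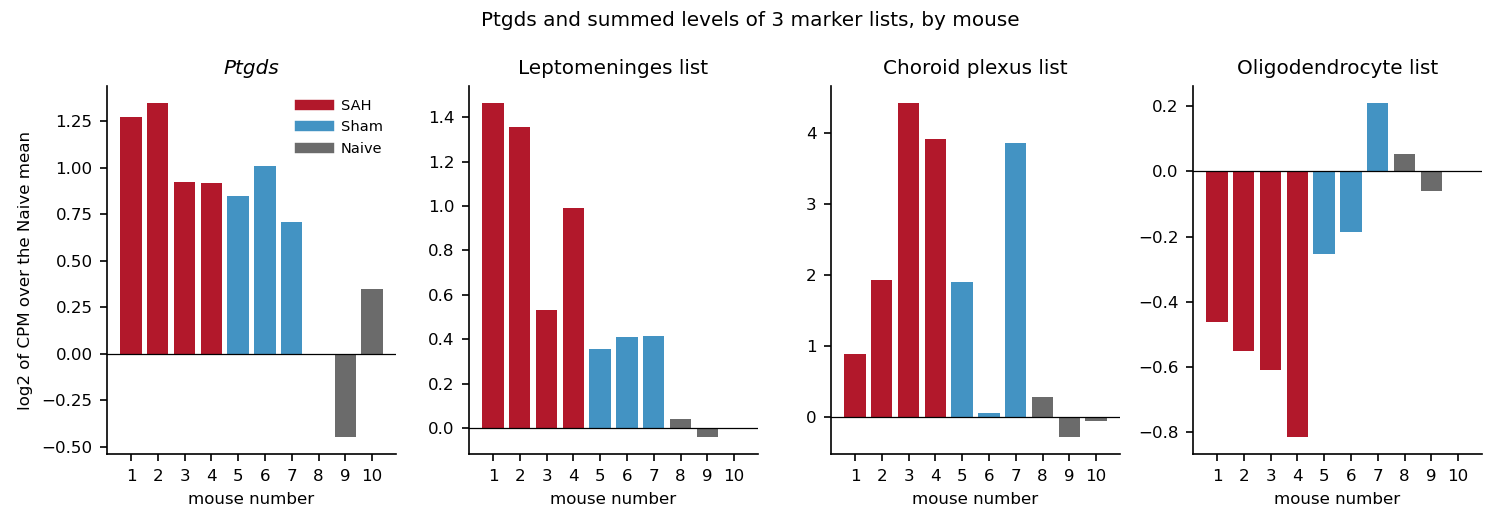
Log2 of CPM over the mean of the Naive mice (vertical axes, which differ in scale) by mouse number for Ptgds and for the summed markers of leptomeninges, choroid plexus and oligodendrocytes; SAH mice are red, Sham mice blue and Naive mice grey. Ptgds and the leptomeningeal and choroid plexus sums lie above the Naive mean in all 7 mice with surgery, the choroid plexus sum of Sham mouse 6 (62.2 CPM) least so, and the oligodendrocyte sums of SAH mice lie below 0.

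The tested genes whose profile over the 10 mice was nearest to that of Ptgds were Aldh1a2, Cped1, Gstm2, Bmp7 and Pir, in this order. Likeness was the mean absolute difference in centred log2 CPM, among genes with a mean CPM of at least 1, and was 0.15 for Aldh1a2 and 0.23 for Pir. Aldh1a2, a retinoic acid synthase and one of the leptomeningeal markers, had 9.95 ± 1.80 CPM in SAH (SD, n = 4), 6.30 ± 0.374 in Sham (n = 3) and 3.70 ± 0.837 in Naive mice (n = 3). Bmp7, a secreted bone morphogenetic protein, had 9.31 ± 3.20, 7.13 ± 0.411 and 4.51 ± 0.0633 CPM. Their likeness to Ptgds in the order of the groups follows from this choice.

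Hpgds, the hematopoietic PGD2 synthase, had 8.41, 7.69, 5.81 and 7.55 CPM in SAH mice 1 to 4. It had 6.47 to 7.00 CPM in Sham mice and 5.50 to 7.26 CPM in Naive mice. SAH mouse 3 lay below all Sham mice and the other SAH mice lay above all control mice. Against control the log2 fold change was 0.18 ± 0.11 (adjusted p = 0.433, edgeR). The log2 ratio of Hpgds to Ptgds counts averaged -6.10 ± 0.189 (SD) in SAH mice, -5.97 ± 0.209 in Sham mice and -5.15 ± 0.201 in Naive mice. SAH differed from control by -0.53 in that ratio, which did not pass the exact permutation test (p = 0.0762, adjusted p = 0.152 over 2 ratios). It passed an adjusted p of 0.10 with Naive mice alone as control (-0.94, exact permutation adjusted p = 0.0571), but with Sham mice alone the difference was -0.12 (exact permutation adjusted p = 0.8). It also passed without SAH mouse 4 (-0.62, 0.0952), Sham mouse 5 (-0.62, 0.0635) or Sham mouse 6 (-0.65, 0.0635). Ptgds was thus the larger PGD2 synthase transcript in every mouse.

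Ptgis encodes prostacyclin synthase (mm9 chromosome 2, 167028696 to 167066037, minus strand, 10 exons). SAH mice 1 to 4 had 1.11, 0.66, 0.66 and 0.92 CPM, from counts of 23, 18, 13 and 23. The Sham mice had 0.25, 0.29 and 0.52 CPM and the Naive mice 0.23, 0.46 and 0.34 CPM, from counts of 6 to 13. All 4 SAH mice were above all 6 control mice, with the least gap between SAH mice 2 and 3 and Sham mouse 7. The log2 fold change against control was 1.26 ± 0.28 (adjusted p = 0.0304, edgeR; 0.0217 by DESeq2). The call was not kept in all alternatives: removal of SAH mouse 4 left 1.21 with an adjusted p of 0.107, and under a filter of at least 10 counts in every mouse Ptgis was not tested.

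Against each control group alone Ptgis did not pass. Its log2 fold change was 1.22 ± 0.35 against Sham (adjusted p = 0.222, edgeR) and 1.31 ± 0.37 against Naive (adjusted p = 0.110, edgeR). Without SAH mouse 2 or SAH mouse 3 the adjusted p against Naive was 0.0886 and 0.0872. Sham against Naive gave 0.086 ± 0.43, and the groups overlapped. Ptgis was therefore unlike Ptgds in its values in the Sham group, which stood beside the Naive group for Ptgis and nearer to the SAH group for Ptgds; the difference between the genes was not tested.

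Vessel wall and leptomeningeal markers were counted beside Ptgis, which is known from vessel walls and fibroblasts. The leptomeningeal list, which holds fibroblast genes, had 13 of 14 higher in SAH than in control and summed levels of 244 to 467 CPM in SAH and 165 to 226 CPM in control mice. Of 9 pericyte and smooth muscle markers 4 were higher in SAH than in control (Vtn, Acta2, Myh11 and Tagln) and 1 higher than in Sham (Tagln; 4 by DESeq2), with summed levels of 186 to 251 CPM in SAH and 135 to 170 CPM in control mice. For Tagln, a smooth muscle actin-binding protein, the log2 fold change came to 0.94 ± 0.14 with an edgeR adjusted p of 0.00375. Of 8 endothelial markers 3 were higher than in control (2 by DESeq2) and 1 (Cdh5) higher than in Sham (2 by DESeq2). The sums of the endothelial list overlapped, with 155 to 276 CPM in SAH and 146 to 193 CPM in control mice. The genes nearest to Ptgis in profile were Ifit3b, Loxl2, Ifit1, Angptl2 and Lum, with mean absolute differences from 0.16 to 0.24. Ifit3b and Ifit1 are interferon-induced, Loxl2 is a lysyl oxidase of the extracellular matrix, and Lum is a matrix proteoglycan and one of the leptomeningeal markers. Lum had 9.15 ± 2.21 CPM in SAH and 4.17 ± 1.05 CPM in control (SD, n = 4 and n = 6), and this likeness to Ptgis in group levels follows from the choice by profile. The part of these cell types in the level of Ptgis was not tested.

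Of the 3 PGE2 synthases 0 passed in any comparison with edgeR or with DESeq2, and Ptges alone had an unadjusted p under 0.05, against control and against Sham. Ptges, the microsomal enzyme that is inducible together with Ptgs2, had 3.72, 2.80, 3.79 and 2.76 CPM in SAH mice 1 to 4. It had 2.52, 2.28 and 2.37 CPM in Sham mice and 2.44, 2.31 and 3.06 CPM in Naive mice. All SAH mice lay above all Sham mice, but Naive mouse 10 lay above SAH mice 2 and 4. Its log2 fold change was 0.38 ± 0.14 against control (adjusted p = 0.191), 0.44 ± 0.17 against Sham (adjusted p = 0.424) and 0.31 ± 0.17 against Naive (adjusted p = 0.425, all edgeR).

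Ptges2, a second membrane-associated PGE synthase, had 26.4 to 30.9 CPM in SAH mice, 29.2 to 34.0 in Sham mice and 27.1 to 33.0 in Naive mice. Ptges3, the cytosolic synthase that is also the HSP90 co-chaperone p23, had 59.2 to 67.3, 63.6 to 66.9 and 60.4 to 71.7 CPM in the same order. For both genes the groups overlapped, and these were the 2 members with a negative log2 fold change against control (-0.14 ± 0.071 for Ptges2, adjusted p = 0.354, and -0.059 ± 0.053 for Ptges3, adjusted p = 0.600, edgeR). Per kilobase both were far above Ptges, the 3 averaging 15.8, 33.7 and 0.685 in control for Ptges2, Ptges3 and Ptges.

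Hpgd, which inactivates prostaglandins by oxidation, had 7.54, 6.55, 3.33 and 7.39 CPM in SAH mice 1 to 4. It had 6.03 to 7.02 CPM in Sham mice and 5.35 to 6.45 CPM in Naive mice. SAH mouse 3 was the lowest of all 10 mice, and the other SAH mice were within or just above the control range. The log2 fold change against control was 0.0061 ± 0.17 (adjusted p = 0.992, edgeR), and without SAH mouse 3 it was 0.20 with an adjusted p of 0.419. Ptger4, the EP4 receptor for PGE2, had 1.03 to 1.599 CPM in SAH mice and 0.93 to 1.37 CPM in control mice. These ranges overlapped (log2 fold change 0.15 ± 0.18, adjusted p = 0.704, edgeR).

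Against Sham mice 0 of the 10 members passed with edgeR and 0 with DESeq2, against 0.72% of the 15134 genes called by edgeR in that comparison. An unadjusted p under 0.05 was found for Ptges and Ptgis, 2 members against 9.69% of all genes, and these 2 were also the members without overlap, against 9.48%. Against Naive mice 1 member, Ptgds, was higher, against 2.03% of all genes, and 0 were lower, against 0.965%. Without SAH mouse 2 that count was 3, and without SAH mouse 3 it was 2. An unadjusted p under 0.05 was found for 3 members (Ptgs1, Ptgds and Ptgis), against 14.8%, and the same 3 did not overlap, against 13.8%. In Sham against Naive 0 passed with edgeR and 0 with DESeq2, and 1 member, Ptgds, had an unadjusted p under 0.05, against 2.02%, and did not overlap, against 8.99%.

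**Figure D4:**
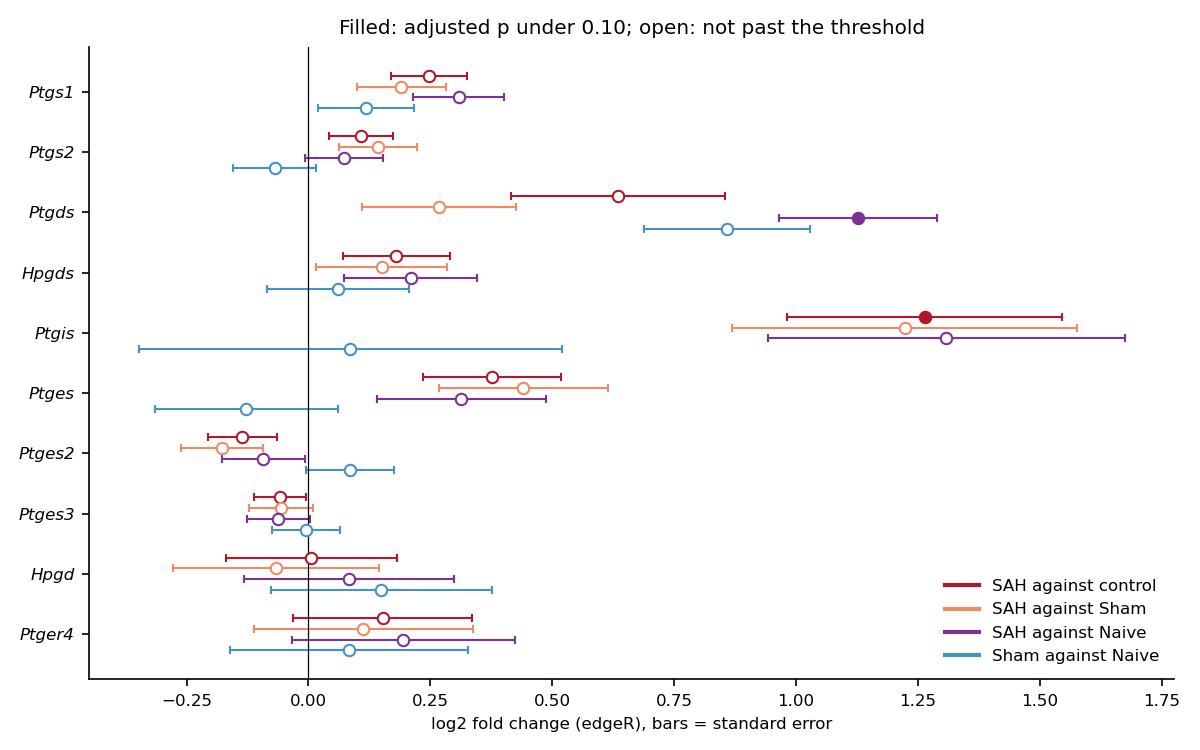
Log2 fold changes from edgeR (horizontal axis; bars are standard errors) of the 10 members in 4 comparisons that share mice; filled points passed an adjusted p under 0.10. The filled points are Ptgis in SAH against control (1.26) and Ptgds in SAH against Naive (1.13), and the Sham against Naive value of Ptgds (0.86) is the largest of that comparison.

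The other genes of the pathway were counted over 5 lists with 50 genes. Arachidonate release, by phospholipases A2 and by the lipases of the endocannabinoid route, had 12 of 16 genes tested, of which 0 passed in SAH against control (2 at an unadjusted p under 0.05, 0 by DESeq2). Its highest levels per kilobase were those of Pla2g7 (96.3 ± 5.00 CPM per kilobase, SD, n = 10), a phospholipase A2 known for cleaving platelet-activating factor and not for release of arachidonate, Mgll (50.1 ± 3.11), the lipase that frees arachidonate from 2-arachidonoylglycerol, and Faah (41.1 ± 2.67), the anandamide hydrolase. Of the 6 other synthases and reductases tested 0 passed (1 at an unadjusted p under 0.05, 0 by DESeq2), and Cbr1 (50.7 ± 1.85), Fam213b (46.5 ± 4.00) and Cbr3 (6.68 ± 0.559) stood highest. Tbxas1, the thromboxane synthase, had 2.02 to 3.40 CPM in SAH mice and 1.70 to 2.50 CPM in control mice, with an adjusted p of 0.418 (edgeR).

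Of the 5 breakdown and transport genes 0 passed (2 at an unadjusted p under 0.05, 1 by DESeq2). The gene called by DESeq2 was Abcc4, an exporter of prostaglandins (log2 fold change 0.62 ± 0.19, adjusted p = 0.115, edgeR). Ptgr2 (15.2 ± 0.780 CPM per kilobase) and Zadh2 (7.37 ± 0.233), both reductases that break down prostaglandins, stood highest in that list.

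Among the prostanoid receptors, listed together with Ptgfrn, a regulator of the prostaglandin F2 alpha receptor and not itself a receptor for prostanoids, 1 of 5 tested genes, of 9 listed, was higher in SAH than in control. This was Ptgdr, the DP1 receptor for PGD2, with counts of 30, 40, 8 and 22 in SAH mice 1 to 4. Counts were 9, 11 and 10 in Sham mice and 1, 3 and 10 in Naive mice. SAH mice 1, 2 and 4 were above every control mouse and SAH mouse 3 was not. The log2 fold change was 1.80 ± 0.43 (adjusted p = 0.0456, edgeR), and the call held with each mouse left out, at adjusted p-values from 0.00805 to 0.0976, although Ptgdr was not tested under a filter of at least 10 counts in every mouse. Against Sham mice it did not pass (log2 fold change 1.43, adjusted p = 0.346, edgeR), except without SAH mouse 3 (adjusted p = 0.0933). Against Naive mice Ptgdr was higher (log2 fold change 2.37, adjusted p = 0.0637), but not without SAH mouse 4 (2.45, adjusted p = 0.106), Sham mouse 6 (2.36, 0.101), Naive mouse 8 (1.81, 0.273) or Naive mouse 9 (2.24, 0.251), nor with only the compared groups in the fit (2.37, 0.140). Without Naive mouse 10 it was 3.52 (adjusted p = 0.0533, edgeR). Ptgfrn (3.03 ± 0.449 CPM per kilobase), Ptger3 (0.718 ± 0.202) and Tbxa2r (0.431 ± 0.0854) had the highest levels of the list and did not pass. In SAH against control 2 of the 5 tested had an unadjusted p under 0.05, against 17.0% of all genes, and DESeq2 called 1, Ptgdr. The 2 were Ptgdr and Ptger3, and Ptger3 was the lower in SAH (log2 fold change -0.51, adjusted p = 0.245, edgeR).

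The leukotriene and lipoxygenase arm, which competes with the cyclooxygenases for arachidonate, had 8 of 13 genes tested and 1 higher in SAH than in control. An unadjusted p under 0.05 was found for 3 (Alox5ap, Alox12b and Ltc4s), against 17.0% of all genes, and DESeq2 called 1, Alox5ap. Alox5ap, the protein that presents arachidonate to 5-lipoxygenase, had 5.32, 3.75, 4.45 and 5.52 CPM in SAH mice 1 to 4. It had 3.24 to 3.54 CPM in Sham mice and 2.63 to 3.10 CPM in Naive mice. All 4 SAH mice were above all 6 control mice, and the gene was higher by 0.60 ± 0.13 on the log2 scale (adjusted p = 0.0285, edgeR). Without SAH mouse 4 the call was lost (0.52, adjusted p = 0.121). Against Naive mice Alox5ap was also higher (log2 fold change 0.73, adjusted p = 0.0387, edgeR). That call was lost without SAH mouse 4 (0.64, adjusted p = 0.108), Naive mouse 8 (0.67, 0.213) or Naive mouse 9 (0.73, 0.156). Lta4h, which makes leukotriene B4, had the highest level of the list (16.3 ± 0.690 CPM per kilobase), followed by Ltc4s (4.19 ± 1.11) and Alox5ap (3.72 ± 0.984). Against Sham mice 0 genes of the 5 lists passed with edgeR and 0 with DESeq2. In that comparison 12, 6, 5, 6 and 10 genes of the lists were tested, in the order given above. Of these, 7 had an unadjusted p under 0.05, against 9.69% of all genes.

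**Figure D5:**
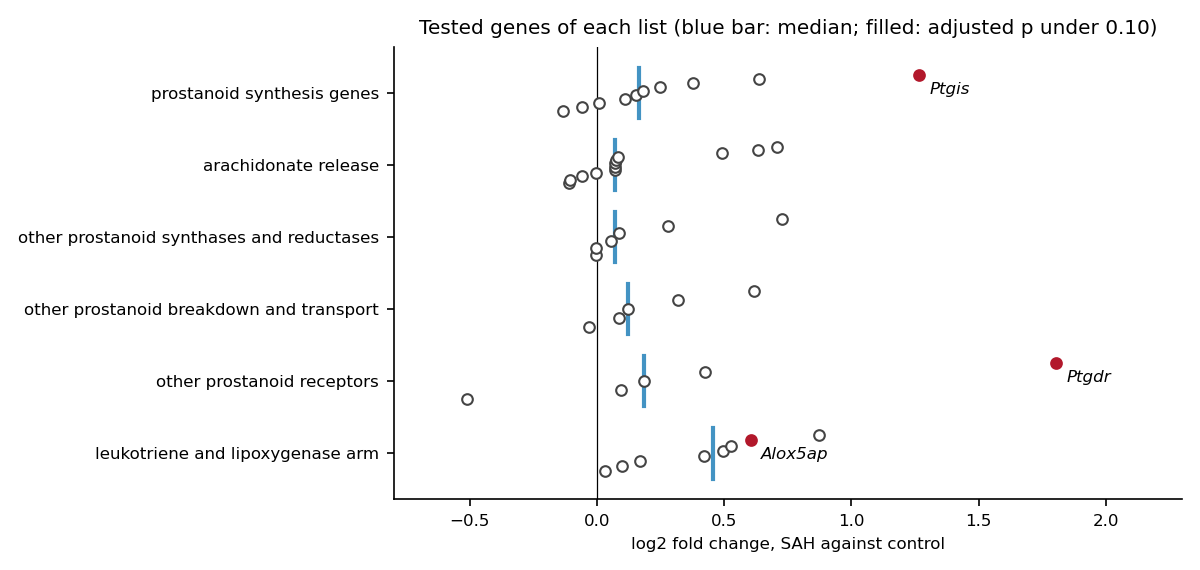
Log2 fold change in SAH against control (horizontal axis) of each tested gene of the prostanoid synthesis genes and of 5 lists of the same pathway; blue bars are medians, and filled points passed an adjusted p under 0.10 (edgeR). The filled points are Ptgis (1.26), Ptgdr (1.80) and Alox5ap (0.60), 1 gene each of their lists.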

How the data were processed

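RNA-seq of bilateral whole hippocampus from 4 SAH, 3 Sham and 3 Naive mice was used, grouped as the labels give it. Libraries were ribosomal RNA-depleted, strand-specific and read as pairs. The authors aligned the pairs to mm9 with STAR and, per the file headers, counted them on the exons of each UCSC gene name with featureCounts 1.6.2 by strand, leaving out pairs on several genes or places. The deposited values are these raw counts per gene, and 0 columns were left unused. P-values test a difference between groups, judged against the spread between mice.

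CPM, fold changes and p-values were computed here with edgeR 4.0.16 (R 4.3.3): TMM, filterByExpr (minimum count 10, minimum total 15), quasi-likelihood test, Benjamini-Hochberg adjustment over all genes tested, threshold 0.10. SAH against control was fitted with 2 groups and the pairwise comparisons with 3. The study itself used DESeq2, run here (1.42.0) as an alternative. Standard errors are the fold change over the square root of F. Scripts were tested on simulated data. Other alternatives were another scaling or filter, an adjusted p under 0.05, the compared groups only and each mouse left out. Ratios took counts plus 0.5 (alternatives 0.1 and 2, or Sham or Naive alone as control). Motifs were counted in RefSeq promoter windows (GRCm38.p6), found for 9 of 10 members (not Ptgis).

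Named were all members, pathway genes past the threshold or among the 3 highest of their list, and the 5 genes nearest to Ptgds and to Ptgis in profile. Marker genes, Tbxas1, Abcc4 and the genes singled out of a count of 5 or fewer were named with their values in view. The members and lists were chosen with earlier results of these data known. No member was removed by the filter, so the test set for that case had nothing to test. The count over the microglial list is not reported here.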

Additional observations from a re-analysis of the deposited data

Results flagged for a closer look

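Ptgs1 in the SAH group had a mouse far from the others: SAH mouse 2 had 12.98 CPM, while the other 3 had 14.9 to 15.2 CPM. Ptges in control had 1 high mouse, Naive mouse 10 with 3.06 CPM, the others having 2.28 to 2.52 CPM. The gap to the nearest mouse took a share of 0.872 of the group's range for Ptgs1 and 0.693 for Ptges. In all, 20 groups (10 members in the SAH and in the control mice) were examined this way, and about 1 in 20 is set apart by chance.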

How the results depend on the processing

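The number of members called in SAH against control, 1 (Ptgis), was 2 with DESeq2 (Ptgs1 and Ptgis), 2 with Sham and Naive fitted apart and averaged (Ptgds and Ptgis), and 0 with at least 10 counts in every mouse, where Ptgis was not tested. With each mouse left out it ranged from 0 (without SAH mouse 4) to 2 (without SAH mouse 2 or Sham mouse 6). In SAH against Naive, 1 (Ptgds) became 2 with DESeq2 (Ptgds and Ptgs1) and ranged from 1 to 3 with a mouse left out (3 without SAH mouse 2, 2 without SAH mouse 3). The counts of 0 against Sham and in Sham against Naive stayed at 0 under each alternative. The ratio of Ptgs2 to Ptgs1 passed with Naive mice alone as control (-0.24; -0.045 with Sham mice alone, which did not pass) and without Sham mouse 5, ranging from -0.21 to -0.081 with a mouse left out. That of Hpgds to Ptgds passed with Naive mice alone (-0.94; -0.12 with Sham mice alone, which did not pass) and without SAH mouse 4, Sham mouse 5 or Sham mouse 6, ranging from -0.65 to -0.41. The cause of these shifts was not tested.

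Of 635 log2 fold changes of members under an alternative, 606 kept direction and side of the threshold, 8 gained the call, 1 lost it and 20 changed sign. With all mice in the fit the only change of sign was Ptges3 in Sham against Naive, 0.0058 with scaling by library size alone. With a mouse left out, Hpgd ranged from -0.093 to 0.20 against control, -0.16 to 0.13 against Sham and -0.015 to 0.28 against Naive. Ptger4 against Sham ranged from -0.029 to 0.24, and Ptges3 against Naive from -0.12 to 0.0038. In Sham against Naive the ranges were -0.15 to 0.0013 for Ptgs2, -0.029 to 0.17 for Hpgds, -0.20 to 0.0032 for Ptges, -0.066 to 0.058 for Ptges3, -0.29 to 0.33 for Ptgis and -0.045 to 0.20 for Ptger4. None of these members was called in those comparisons. Depth limits Ptgis, Ptgdr and Ptger4, of which single mice had from 1 to 40 counts. No paired analysis was possible because each mouse number occurs in 1 group only.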

Other observations

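Of 7 border macrophage markers 6 were higher in SAH than in control, with summed levels of 35.8 to 50.5 CPM in SAH and 19.4 to 24.6 CPM in control mice; Mrc1, the mannose receptor, differed by 1.06 ± 0.19 on the log2 scale (adjusted p = 0.00929, edgeR). Of 9 monocyte and neutrophil markers that have a row, 1 was tested in that comparison and 0 passed with edgeR (1 at an unadjusted p under 0.05, 1 by DESeq2), with sums of 7.06 to 11.8 CPM in SAH and 4.93 to 6.72 CPM in control mice. Of 8 astrocyte markers 1 was higher, the filament gene Gfap (log2 fold change 1.00 ± 0.16, adjusted p = 0.00535, edgeR). Of 6 erythrocyte genes 1 was tested and 0 passed (0 at an unadjusted p under 0.05, 0 by DESeq2), and 4 had no count in any group.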
